A study of Mus musculus with 8 samples.

Results

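Cholinergic interneurons of the mouse striatum were taken from single-nucleus RNA libraries of the caudate putamen as barcodes with 500 or more detected genes and at least 4 unique molecular identifiers (UMIs, each a distinct captured transcript) of Chat, Slc5a7 and Slc18a3 together. The nuclei were therefore chosen by the measured UMIs of these 3 genes. The rule gave 220 nuclei of 61767 caudate putamen barcodes with 500 or more genes, in a series of 109826 barcodes from hippocampus and caudate putamen. In the libraries of 3-month-old mice there were 45 nuclei in replicate 1 and 67 in replicate 2, and in those of 21-month-old mice 31 and 77. All mice were C57BL/6JN with no transgene or treatment named in the labels, and age was the only labelled difference between the 2 groups of 2 caudate putamen libraries. Each library pooled equal numbers of sorted nuclei from 1 male and 1 female, so a library is a pool of 2 animals, and the labels do not say which animals gave which library. The comparison asked what differs between young and old tissue.

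Cholinergic interneurons are a small fraction of striatal neurons, most of which are medium spiny projection neurons that use GABA. They make acetylcholine with choline acetyltransferase, the enzyme encoded by Chat, take choline back up through the high-affinity transporter Slc5a7, and load acetylcholine into vesicles with the transporter Slc18a3. They fire on their own, pause in response to salient events and dopamine, arise from the embryonic ventral forebrain under the transcription factors Lhx8 and Isl1, and also carry the vesicular glutamate transporter Slc17a8.

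Chat lies on chromosome 14 at chr14:32408203-32465989 of GRCm38, on the minus strand, and the single-exon Slc18a3 at chr14:32462438-32464850 lies wholly inside it, on the same strand and in an intron (0 Chat exons overlap it). Reads of the 2 genes could therefore be assigned to either where introns were counted, and the antisense gene Gm2990 (chr14:32465042-32483548, plus strand) overlaps the start of Chat. Slc5a7 lies on chromosome 17. The sequences before the start of each of the 3 genes, from RefSeq for GRCm38.p6, are shown because these genes chose the nuclei. All are written 5′ to 3′ on the gene's own strand, which is minus for all 3. Capitals mark a match to TATAAA.
Chat, chr14:32465990-32466159: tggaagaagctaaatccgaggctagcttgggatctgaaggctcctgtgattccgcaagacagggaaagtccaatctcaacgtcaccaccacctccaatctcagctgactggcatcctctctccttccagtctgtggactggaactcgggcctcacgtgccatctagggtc
Slc5a7, chr17:54299035-54299284: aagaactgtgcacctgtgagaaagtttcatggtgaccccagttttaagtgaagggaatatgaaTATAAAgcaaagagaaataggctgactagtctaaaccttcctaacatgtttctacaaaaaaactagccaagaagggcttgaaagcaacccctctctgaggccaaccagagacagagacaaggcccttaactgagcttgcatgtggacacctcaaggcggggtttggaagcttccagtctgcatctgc
Slc18a3, chr14:32464851-32465100: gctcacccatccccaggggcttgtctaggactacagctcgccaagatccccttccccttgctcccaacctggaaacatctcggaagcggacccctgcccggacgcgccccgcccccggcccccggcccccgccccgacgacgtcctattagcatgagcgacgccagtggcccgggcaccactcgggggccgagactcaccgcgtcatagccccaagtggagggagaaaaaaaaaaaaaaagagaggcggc
The motifs TAATTA, the core bound by LIM homeodomain factors such as Lhx8, and TATAAA were searched on both strands of a window of 250 bases per gene. For Slc5a7 and Slc18a3 this is the stretch shown. For Chat it runs on past the 170 bases shown, into the gene coordinates given above. Slc5a7 held 1 TATAAA, and no other match was found for the 3 genes. Of 32851 promoter windows of 250 bases, 4.84% held TAATTA and 12.4% held TATAAA.

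The rule took in 2 kinds of nuclei. Of the 220, 60 carried the markers of another cell type at 47.2 or more UMIs per 10000, which is 0.5 of the median of D1 and D2 medium spiny neuron barcodes (94.4 per 10000), or at the matching bound for a glial type. In 59 of them these were 12 medium spiny neuron markers (among them Pde10a, Rgs9 and Bcl11b), and in 1 astrocyte markers. Of the 60, 53 had Chat UMIs but no Slc5a7 UMI. Lhx8 was found in 2 of them, Slc17a8 in 2 and the substance P receptor Tacr1 in 9. At least 3 UMIs of the dopamine receptor Drd2 were found in 24, at least 3 of Drd1 in 11, and neither in 29.

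The other 160 nuclei matched the label by markers that the rule did not use. Lhx8 was present in 150 of them, Isl1 in 135, Slc17a8 in 151 and Tacr1 in 155, and Drd2, which striatal cholinergic interneurons are known to express, reached 3 UMIs in 152. Of the rule's own genes, Chat and Slc5a7 were both present in 157. The 4 listed markers of cholinergic projection neurons of the basal forebrain summed to 677, 769, 708 and 785 CPM (UMIs per 1000000) in the 4 libraries, young ones first. Most of this was Chrm2, which striatal cholinergic interneurons also express (630, 737, 683 and 755), and the neurotrophin receptor Ngfr had no UMI in any of the 160. A part of basal forebrain neurons in the 160 was not tested. These 160 were 36 and 52 nuclei at 3 months and 20 and 52 at 21 months. The share of nuclei with another type's markers was 20% and 22.4% at 3 months and 35.5% and 32.5% at 21 months, so it was higher in both old libraries. Counts of calls and most medians of gene lists are given for both sets of nuclei.

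The 2 kinds lay on either side of about 6 rule UMIs. At 3 rule UMIs, just outside the rule, 145 barcodes had a median of 96.4 medium spiny neuron marker UMIs per 10000, and Lhx8 was found in 2.07% of them. At 4 UMIs, just inside it, 41 nuclei had a median of 94.7, Lhx8 was found in 4.88%, and 3 of the 41 lacked another type's markers. Of the 57 nuclei with 4 or 5 rule UMIs, 5 lacked such markers, against 148 of the 150 with 8 or more. At 12 or more rule UMIs the median was 5.47, with Lhx8 in 96.7% and Slc17a8 in 98.4% of 122 nuclei. Among the 160, 24 still held 23.1 to 45.8 medium spiny neuron marker UMIs per 10000, while the other 136 held at most 14.3.

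**Figure D1:**
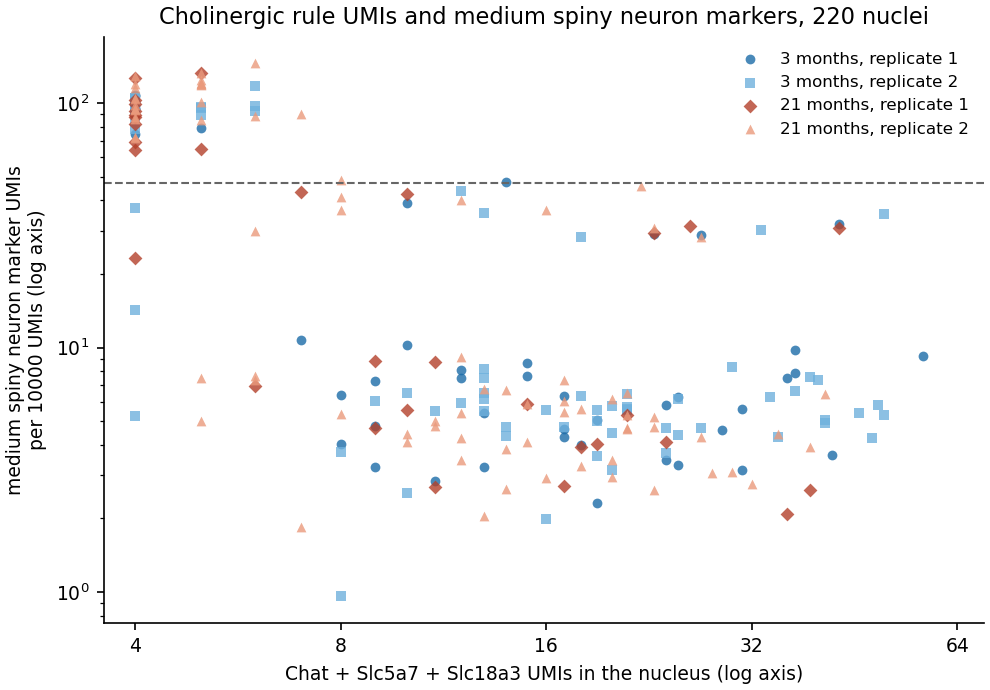
Each point is 1 of the 220 nuclei, with the summed UMIs of Chat, Slc5a7 and Slc18a3 on a logarithmic x axis and medium spiny neuron marker UMIs per 10000 on a logarithmic y axis, with colours and shapes for the 4 libraries. The dashed line is the bound of 47.2. Nuclei above it lie almost all at 4 to 6 rule UMIs, a band between about 20 and the line holds 24 nuclei of all rule counts, and the main group lies under 20.

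The 220 nuclei were deeper than the other barcodes. Their median was 23345 and 23400 UMIs at 3 months and 23082 and 17043 at 21 months, against medians of 7314 to 11999 over all barcodes of the 4 libraries, and the second old library was the shallowest on both counts. No barcode of the 220 was shared between libraries, and mitochondrial UMIs reached at most 0.14% in any of them. Scrublet, which scores likely doublets library by library, marked 24 of the 220, of which 6 were among the 160. By UMIs of Xist and Y-linked genes, the 160 held 9 female and 18 male nuclei in young replicate 1, 41 and 5 in young replicate 2, 7 and 7 in old replicate 1 and 21 and 13 in old replicate 2, with both or neither kind of UMI in the rest. The sexes were thus unequal in both young libraries, in opposite directions and most in replicate 2, and also in old replicate 2, although equal numbers of nuclei were pooled.

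The 3 genes of the rule are described without a test, since they chose the nuclei. Levels are CPM, the UMIs of a gene scaled to 1000000 UMIs of the summed nuclei of a library. Over all 220 nuclei Chat was at 389 and 393 CPM at 3 months and at 230 and 404 at 21 months. Slc5a7 was at 294 and 330, and 232 and 286. The first old library was lowest for both. Among the 160, Chat was at 439, 443, 326 and 447 in the same order of libraries and Slc5a7 at 358, 411, 415 and 389, so the low value of old replicate 1 persisted for Chat and not for Slc5a7. Slc18a3 was sparse, with 1.15 to 5.85 CPM over the 220 nuclei, and only 20 of the 160 had UMIs of all 3 genes.

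Outside the 160 nuclei, Chat was spread at a low level over medium spiny neurons and Slc5a7 was not. D2 barcodes had at least 3 UMIs of Drd2 and Adora2a and at most 1 of Drd1, D1 barcodes at least 3 of Drd1 and at most 1 of the other pair, and Sst/Npy/Nos1 barcodes at least 4 UMIs of those 3 genes. In D2 barcodes Chat was at 6.18 and 5.52 CPM at 3 months and 8.12 and 14 at 21 months, with a UMI in 7.56%, 7.25%, 9.05% and 12.2% of barcodes. Their median depths were 13643, 15113, 12812 and 9805 UMIs, so the highest share of barcodes with a UMI fell in the shallowest library. D1 barcodes held 7.30, 6.67, 8.67 and 13.6 CPM of Chat, and Sst/Npy/Nos1 interneurons 1.90 to 3.48. Oligodendrocytes, which should lack the gene, held 0.356 to 1.01 CPM. Astrocytes held 0.791, 0.274, 1.75 and 3.15 CPM of Chat. Microglia held 1.64, 1.81, 1.10 and 3.99, with a UMI in 1 to 3 barcodes per library. In each of these classes, medium spiny neurons included, the second old library was highest. Slc5a7 was at 0.154 to 0.434 CPM in D2 barcodes, at 0 in the Sst/Npy/Nos1 barcodes of all 4 libraries and at 1.47 to 5.06 in astrocytes. The 53 nuclei with Chat and no Slc5a7 were counted by that trait, so it cannot liken them to medium spiny neuron barcodes. The source of the Chat UMIs in medium spiny neuron barcodes was not tested.

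**Figure D2:**
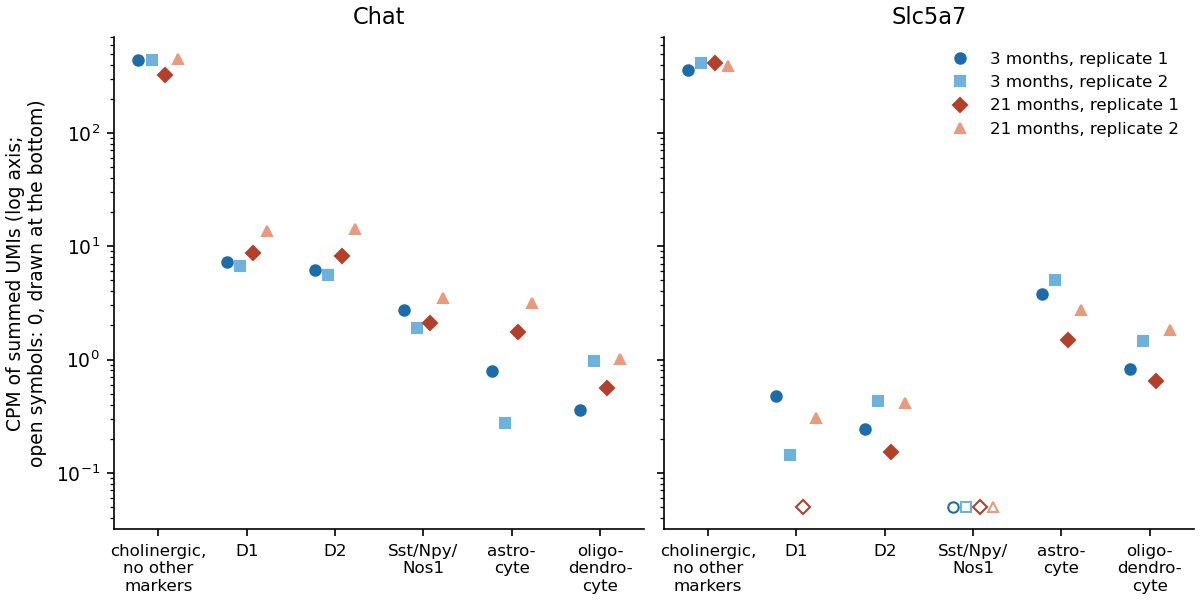
CPM of Chat (left) and Slc5a7 (right) on a logarithmic axis in the 160 cholinergic nuclei and in 5 other classes of barcodes, 1 point per library, with open symbols for 0. Chat was highest in the second old library in all 5 of these classes, at 13.6 and 14 CPM in D1 and D2 barcodes. It stayed under 4 CPM in the 3 other classes.

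The genes most enriched in the cholinergic nuclei came from several functional groups. Because the rule chose the nuclei, folds over all other caudate putamen barcodes are descriptions. Slc17a8 led, at 302, 309, 203 and 297 CPM in the 160 nuclei, 1083-fold above the other barcodes (802-fold with all 220). Others among the 15 highest were the long noncoding Gm29374, Gm42423, Gm49678 and Gm48346, Slc5a7, the receptor genes Qrfprl and Insrr, the endopeptidase Ecel1, Popdc3, the calcium-binding copine Cpne4, Tnfaip8l3 and the vesicular transporter homologue Slc10a4. Qrfprl was at 408, 371, 313 and 382 CPM, with a UMI in 95% of the 160. Within this set Gm29374 lies 671 bases past the end of Ecel1 on the same strand of chromosome 1. Whether Ecel1 and Gm29374 are separate transcripts was not tested.

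The transcription factors of cholinergic fate lay at similar levels in the 4 libraries. Lhx8 was at 170, 173, 206 and 184 CPM in the 160 nuclei and Isl1 at 102, 92.9, 89.3 and 95.9, each differing between ages by less than the test could call (edgeR's quasi-likelihood test, adjusted p = 0.844 and 0.982). Zic1, another forebrain regulator, was at 58.1, 67.3, 85.1 and 63.0. Both Lhx8 and Isl1 had UMIs in 130 of the 160 nuclei, and at least 1 of them in 155. Over the 13 identity factors 7 could be tested, with a median log2 difference of 0.18 in the 160 and −0.14 in the 220. None was called in either set of nuclei, where 0.231% and 0.00988% of all genes were, so none among 7 is no finding.

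Genes of acetylcholine breakdown and of a second transmitter were also present. Ache, the enzyme that breaks acetylcholine down, was at 77.2, 65.8, 58.1 and 55.5 CPM, lower in both old libraries (adjusted p = 0.791, edgeR), and Prima1, which anchors it to the membrane, was at 505, 421, 511 and 506. Slc10a4 was at 42.3, 34.4, 39.4 and 36.7. Gad2, a GABA-synthesizing enzyme, was at 95.1, 103, 127 and 129 CPM and had a UMI in 138 of 160 nuclei, and 131 of 160 held UMIs of both Slc17a8 and Gad2. The median log2 difference between ages was −0.07 over 8 tested genes of acetylcholine handling and 0.07 over 4 tested co-transmitter genes, against 0.00 over all tested genes. With the 220 nuclei these medians were −0.28 and 0.45, against 0.00.

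Receptor genes for neuropeptides, acetylcholine, opioids and dopamine were among those detected. Tacr1 was at 1231, 1391, 1397 and 1649 CPM, and the neurokinin B receptor Tacr3 at 130, 118, 129 and 119. The muscarinic autoreceptor Chrm2 was at 630, 737, 683 and 755, and the opioid receptor Oprd1 at 192, 166, 187 and 232. Drd2 was at 385 and 422 at 3 months and 550 and 526 at 21 months, higher in both old libraries (log2 difference 0.42 ± 0.13 SE) without passing the threshold of 0.05 (edgeR's quasi-likelihood test, adjusted p = 0.225). Over all 220 nuclei the difference in Drd2 was 0.22 (adjusted p = 0.697). The rare receptors Drd5 and Chrm4 stayed under 6 CPM and were not tested.

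No tested channel gene of autonomous firing was called between the ages. Calls were rare over all genes (0.231% in the 160 nuclei and 0.00988% in the 220), so none in a list this small is no finding. Hcn2, a channel of the hyperpolarization-activated current, was at 64.5, 66.6, 62.3 and 77.1 CPM. The small-conductance potassium channel Kcnn2 was at 187, 195, 210 and 208 and the calcium channel Cacna1d at 614, 595, 558 and 661. Of 31 listed pacemaking channel genes 27 could be tested in the 160 nuclei, 15 with a log2 difference above 0 and 12 below, with a median of 0.04. The list held no call, and neither did the 22 tested glutamate receptor genes (median 0.15) or the 11 tested GABA-A receptor subunits (median 0.02). With the 220 nuclei the 3 medians were 0.08 (29 genes tested), 0.34 and 0.18.

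The share of the 220 nuclei among caudate putamen barcodes did not separate the ages. It was 0.364% (95% exact interval 0.266 to 0.487) and 0.415% (0.322 to 0.526) at 3 months, and 0.213% (0.145 to 0.302) and 0.412% (0.325 to 0.515) at 21 months. The first old library was low and the second lay between the young ones. The means were 0.389 ± 0.0356% and 0.312 ± 0.141% (SD, n = 2 libraries each), a difference of −0.0771 percentage points (exact permutation test, two-sided, p = 0.667). With 2 libraries against 2 the smallest p this test can give is 0.33. Without the first old library the sign of the difference in the 220 turned, to 0.0225. Among the 160 the shares were 0.292%, 0.322%, 0.137% and 0.278%, lower in both old libraries by 0.0989 points on average (exact permutation p = 0.33). At 6 rule UMIs both old shares also lay below both young ones, at 0.13% and 0.289% against 0.3% and 0.328% (exact permutation p = 0.33). Thinning to 5000 UMIs with a minimum of 3 rule UMIs left out 25.8%, 21.2%, 33.8% and 33.5% of barcodes as shallower, and the order then depended on the denominator. Without another type's markers the shares were 0.327%, 0.322%, 0.145% and 0.346% of the barcodes kept, with old replicate 2 above both young libraries (exact permutation p = 1.0). Of all barcodes with 500 or more genes, a denominator chosen after seeing the data, the same nuclei were 0.243%, 0.254%, 0.0961% and 0.23%, with both old libraries below both young ones (exact permutation p = 0.33). With nuclei that carry such markers included, old replicate 2 lay above both young libraries by either denominator, at 0.419% and 0.278%. As a percentage of D1 and D2 barcodes the 160 came to 0.983%, 0.907%, 0.507% and 0.964%, where old replicate 2 lay above young replicate 2. The intervals cover counting error only, and the shares also depend on the tissue punched and the sorting.

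**Figure D3:**
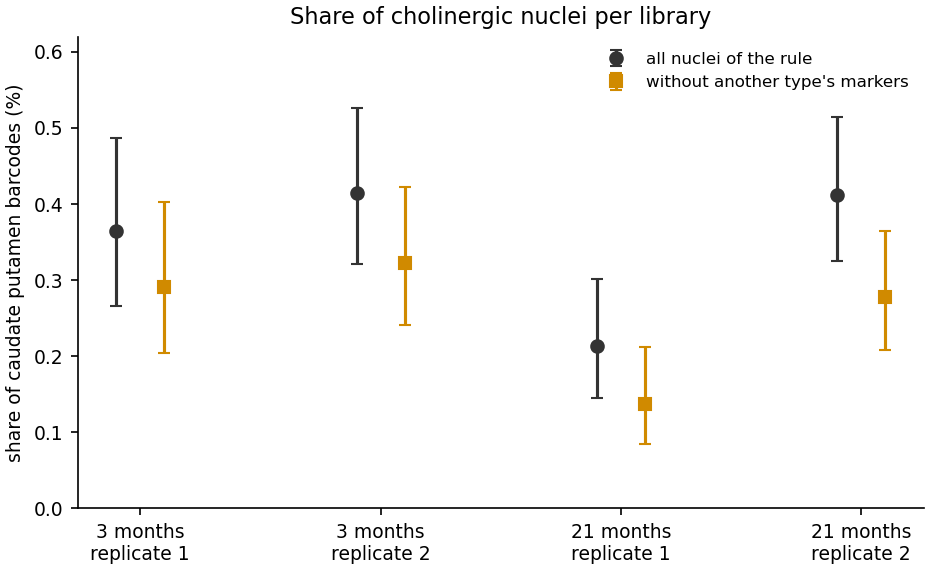
Share of cholinergic nuclei in percent of caudate putamen barcodes with 500 or more genes, per library, for all 220 nuclei (circles) and for the 160 without another type's markers (squares), with 95% exact binomial intervals. Old replicate 1 lies lowest in both, at 0.213% and 0.137%.

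Between 3 and 21 months 1 gene passed the test over all 220 nuclei. The UMIs were summed per library, and edgeR's quasi-likelihood test compared 2 old with 2 young libraries over 10122 genes (0.00988% called, adjusted p under 0.05, and 0.0% in the lower direction). Kcnh1, a voltage-gated potassium channel gene, rose from 46.9 and 49.1 CPM to 142 and 112 (log2 difference 1.41 ± 0.19 SE, adjusted p = 0.0302). Medium spiny neuron barcodes hold far more Kcnh1, with 161, 129, 185 and 227 CPM in D2 barcodes, and in the 160 nuclei it was at 10.6, 13.2, 37.4 and 21.6, with a log2 difference of 1.18 ± 0.39 that missed the threshold (edgeR, adjusted p = 0.295). Over nuclei with at least 3 rule UMIs the difference was 0.60 (adjusted p = 0.326), at 6 rule UMIs 1.16 (adjusted p = 0.18) and after thinning to 5000 UMIs 0.97 (adjusted p = 0.169), and DESeq2 gave Kcnh1 no adjusted p. The medium spiny neuron markers moved the same way in the 220 nuclei: the 12 markers summed to 2438 and 2677 CPM at 3 months and 5034 and 3550 at 21 months, 10 of 12 lay above 0 and 10 did not overlap between the ages, where 19.5% of all genes did so in that direction and 43.0% in either. Their part in the Kcnh1 result was not tested. Unadjusted, 1099 genes had p under 0.05. DESeq2 called 18 of the 1093 genes it gave an adjusted p (1.65%), 17 of them higher (1.56%) and 1 lower (0.0915%).

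The 9 other genes named for the higher direction lay higher in both old libraries over the 220 nuclei, and their levels were lower in the 160. They were Rerg, Grin2a, Slc24a4, Onecut2, Sorcs2, Osbp2, Galnt14, Sema3a and Prkce, with adjusted p between 0.0691 and 0.0727. The NMDA receptor subunit gene Grin2a was at 194, 218, 509 and 360 CPM over 220 nuclei and at 84.6, 43.9, 102 and 87.4 over 160. The exchanger gene Slc24a4 was at 30.7, 39.8, 130 and 79.3 over 220 nuclei, and at 12.7, 12.4, 8.30 and 12.2 over 160, where the sign turned. Galnt14, a glycosyltransferase gene, kept a log2 difference of 1.15 ± 0.28 in the 160 (adjusted p = 0.0989), and the transcription factor gene Onecut2 one of 1.61 ± 0.41 (adjusted p = 0.0994), against 1.47 in the 220. Onecut2 held only 10, 11, 9 and 35 UMIs in the 160, and 4 of the 9 in old replicate 1 came from 1 nucleus. For Galnt14, 9 of 24 UMIs of old replicate 1 came from 1 nucleus.

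Among the 160 nuclei 21 of 9100 genes were called (0.231%), 6 higher (0.0659%) and 15 lower (0.165%) in the old libraries. The split moved with the library left out: 21 higher and 3 lower without old replicate 2, 7 and 6 without old replicate 1, 8 and 41 without young replicate 1, and 17 and 39 without young replicate 2. Each of the 21 lost its call with at least 1 of the 4 libraries left out. For Spg11, Ndrg4, Atxn2l and Gm34544 this was old replicate 2 alone and for Gm42418 young replicate 1 alone, for Srsf5 old replicate 1 alone, while Ecel1, Lhfp and Myo18a lost it whichever library was left out. These nuclei and the bound of 20 used below are alternatives to the rule, and the bound of 20 was chosen after the values were seen. Lower in both old libraries were Ecel1, an endopeptidase and 1 of the 15 genes most enriched in these nuclei, Spg11, a lysosomal protein gene of hereditary spastic paraplegia, the neuronal Ndrg4, the RNA-binding Atxn2l, Ddx5 and Srsf5, and the deubiquitinase Usp19. Higher were Gm42418, a noncoding locus known to overlap ribosomal RNA sequence, Etl4, the calcium release channel Itpr1, Lingo2, Myo18a and Pcolce2. Those of the 21 that the naming rule for all 220 nuclei does not cover were named after their values were seen.

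Ecel1 was at 241 and 238 CPM at 3 months and 133 and 152 at 21 months, so the ages did not overlap. It fell by 0.71 ± 0.15 (SE) on the log2 scale (edgeR, adjusted p = 0.0326), but it was called in only 3 of 11 settings of the processing in these nuclei, and its log2 difference was smallest, at −0.43, in the nuclei with Xist and no Y-linked UMI. Spg11 was at 144 and 140 CPM at 3 months and at 78.9 and 59.2 at 21 months, and fell by 1.08 ± 0.19 (adjusted p = 0.00575). Over 25 settings of the processing its log2 difference ran from −1.46 to −0.41. Both genes had the same direction in the 220 nuclei without passing the threshold, with Ecel1 at 200, 191, 73.4 and 112 CPM (adjusted p = 0.0691) and Spg11 at 124, 115, 56.2 and 48.6 (adjusted p = 0.062). Of other enriched genes, Slc17a8 also lay lower in both old libraries (values above) without a call (adjusted p = 0.761, edgeR), while Cpne4 was at 3953, 4129, 3908 and 4493 CPM and Popdc3 at 104, 107, 112 and 134 in the 160 nuclei.

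Ndrg4 was at 151 and 149 CPM at 3 months and at 70.6 and 70.5 at 21 months, and fell by 1.08 ± 0.18 (edgeR, adjusted p = 0.00376). Atxn2l went from 89.9 and 85.6 to 43.6 and 34.8 CPM (adjusted p = 0.0216), and Usp19 from 47.6 and 42.4 to 14.5 and 15.0 (adjusted p = 0.0326). In all 3 the young values lay within 6 CPM of each other. Slc22a17, a membrane receptor and transporter gene, went from 92 and 88.5 to 37.4 and 47.0 CPM, Ddx5 from 359 and 350 to 239 and 198, and Srsf5 from 126 and 121 to 49.8 and 73.3. Ptprn, which encodes a protein of dense-core vesicles, Lhfp, the G protein subunit gene Gng12 and Gm12353 were also called lower.

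Of the genes called higher, Gm42418 was at 780 and 937 CPM at 3 months and 1293 and 1588 at 21 months (log2 difference 0.76 ± 0.12, adjusted p = 0.00376, edgeR). In old replicate 1, 193 of its 623 UMIs came from 1 of the 20 nuclei. Lingo2 had 50 of its 115 UMIs in that library in 1 nucleus. Etl4 rose from 327 and 415 to 600 and 593 CPM (0.69 ± 0.13, adjusted p = 0.0216). Pcolce2 was at 16.9, 23.4, 64.3 and 45.1, and Itpr1 at 70.8, 89.3, 168 and 128. Medium spiny neuron barcodes hold much more Itpr1, with 1076, 1041, 1073 and 1136 CPM in D2 barcodes. In the nuclei without another type's markers the 12 medium spiny neuron markers summed to 1054, 993, 1511 and 1047 CPM, young libraries first. Of 11 tested, 7 lay above 0 and 4 below, with a median log2 difference of 0.37. The ages did not overlap for 5 in the higher direction and 1 in the lower one. Nuclei with 20 or more such marker UMIs per 10000 were 4 of 36, 6 of 52, 6 of 20 and 8 of 52. The part of these markers in the calls was not tested.

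For 3 of the calls most UMIs of a young library came from 1 nucleus. The long noncoding Gm34544 was called lower (114, 60.7, 0 and 6.58 CPM), but 103 of its 108 UMIs in young replicate 1 and 82 of 83 in young replicate 2 came from 1 nucleus each. For the lysyl oxidase gene Loxl2, 12 of 16 and 20 of 38 UMIs came from 1 nucleus. For Gng12 it was 33 of 53 in young replicate 2, and its old libraries held 1 and 8 UMIs. All 7 tested oligodendrocyte markers lay below 0 with a median of −0.87, and 1 of them was called lower, against 0.165% of all genes. The ages did not overlap for 5 of the 7, where 20.4% of all genes did so in the lower direction. The 9 oligodendrocyte markers summed to 274, 225, 125 and 144 CPM. All 4 tested astrocyte markers lay above 0 with a median of 0.52. For 3 of them the ages did not overlap, where 18.0% of all genes did so in the higher direction. The 7 listed astrocyte markers summed to 519, 395, 785 and 593 CPM. The part of either list in the calls was not tested.

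With only the 136 nuclei under 20 medium spiny neuron marker UMIs per 10000, 13 of 8279 genes were called (0.157%), 3 higher (0.0362%) and 10 lower (0.121%), of which 8 were among the 21. These were Gm42418 and Etl4 in the higher direction, and Ndrg4, Spg11, Atxn2l, Usp19, Slc22a17 and Gm34544 in the lower one. All 21 kept their sign. The 136 nuclei are part of the 160, so the shared calls and kept signs are no independent support. Ecel1 was then at 263, 257, 145 and 166 CPM with an adjusted p of 0.0692 (edgeR). Lingo2 was at 71.8, 32, 23.1 and 109 CPM, where the ages overlap (adjusted p = 0.948), and Itpr1 at 21.8, 38.9, 66.0 and 55.2 (adjusted p = 0.294). DESeq2 called 1 gene in the 160 nuclei (0.011%), with 136 at an unadjusted p under 0.05. In the 78 nuclei of the 160 with Xist and no Y-linked UMI edgeR called none, with 172 at an unadjusted p under 0.05.

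**Figure D4:**
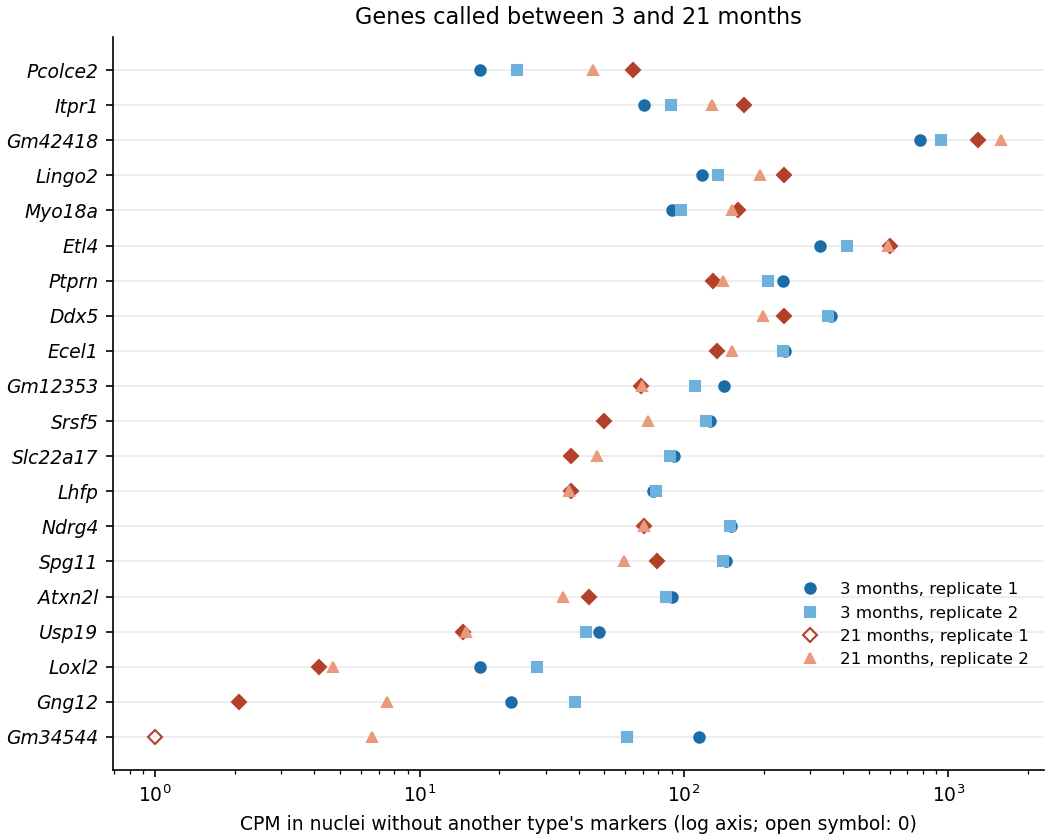
CPM in the 160 nuclei, on a logarithmic axis, of 20 of the 21 genes called between 3 and 21 months by edgeR's quasi-likelihood test, 1 point per library, with an open symbol for 0. For each gene the 2 old libraries lie on one side of the 2 young ones, with Ndrg4 at 151 and 149 against 70.6 and 70.5.

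The lists of chaperones, ribosomal proteins and oxidative phosphorylation held no call in the 160 nuclei. Over all genes 0.231% were called, so none in lists of this size is no finding. Of the chaperones, which fold proteins, all 19 tested lay below 0 in the 160 nuclei, with a median of −0.38 against 0.00 over all genes, yet none was called. The ages did not overlap for 8 of these 19, where 20.4% of all genes did so in the lower direction. Hspa8 was at 71.9, 62.2, 49.8 and 44.2 CPM and Hspa5 at 35.9, 41.0, 22.8 and 25.4. Over all 220 nuclei the chaperone median was −0.30, and 12 of 19 did not overlap against 23.5% of genes. Ribosomal protein genes had a median of −0.18 over 48 tested and oxidative phosphorylation genes −0.09 over 59, with none called, and −0.20 over 64 and −0.17 over 67 in the 220. Of 18 immediate early genes and 18 genes of antigen presentation and interferon signalling, 3 and 1 could be tested, and none was called.

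The fall of several of these genes was not particular to the cholinergic nuclei. D1 barcodes (2895), D2 barcodes (15838) and Sst/Npy/Nos1 interneurons (376) came from the same 4 libraries, so their values share the library. Within them edgeR called 98 (0.649%), 874 (4.76%) and 5 (0.0488%) genes between the ages. Summed UMIs per library were 9847913 to 20697110 in D1, 44989342 to 78296695 in D2 and 943843 to 1581442 in Sst/Npy/Nos1 barcodes. The counts of calls therefore do not compare the classes at equal depth. Atxn2l went from 53.6 and 50.3 to 24.6 and 22.1 CPM in D2 barcodes and was called in all 3 classes (adjusted p = 0.00979, 0.00349 and 0.0225), and Usp19, Slc22a17, Ddx5, Srsf5 and Ptprn were called lower in D1 and D2 barcodes. Ndrg4 was called in D2 barcodes (262, 206, 151 and 125 CPM, adjusted p = 0.0479).

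Spg11 lay level in medium spiny neurons. It was at 27.4, 29.2, 27.8 and 28.0 CPM in D1 barcodes and at 28.3, 28.6, 25.4 and 27.9 in D2 barcodes. The difference of age effects, fitted with the library as a block, was −1.05 ± 0.24 against D1 (edgeR, adjusted p = 0.00935) and −0.99 ± 0.23 against D2 (adjusted p = 0.00666) with the 160 nuclei. With all 220 it was −1.14 ± 0.22 against D1, which was not called (adjusted p = 0.0864), and −1.06 ± 0.22 against D2 (adjusted p = 0.000643). With the 136 nuclei the adjusted p was 0.0482 and 0.063. The age call of Spg11 in the 160 was itself lost without old replicate 2 (adjusted p = 0.178, edgeR). Against Sst/Npy/Nos1 interneurons, which held 30.3, 29.7, 32.8 and 39.0 CPM, it was not called (adjusted p = 0.56).

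Glra2 and Slc24a3 lay level across the libraries in the 160 cholinergic nuclei. In D2 barcodes both lay lower in both old libraries, and Glra2 did so in D1 barcodes too. Glra2 encodes a glycine receptor subunit. In the 160 nuclei it was at 266, 246, 247 and 259 CPM, in D1 barcodes at 17.7, 10.7, 2.89 and 2.84, and in D2 barcodes at 7.56, 6.91, 1.54 and 1.08. Over all 220 nuclei Glra2 was at 223, 200, 136 and 188 CPM, lower in both old libraries without a call (log2 difference −0.34, adjusted p = 0.49, edgeR). The signed age difference in the cholinergic nuclei minus that in D1 barcodes was 1.90 ± 0.26 (adjusted p = 0.0073) with all 220 and 2.24 ± 0.24 (adjusted p = 6.91e-17) with the 160, by edgeR. Minus that in D2 barcodes it was 2.15 ± 0.21 (adjusted p = 2.09e-19) and 2.49 ± 0.22 (adjusted p = 1.76e-26). The age difference was thus smaller in size in the cholinergic nuclei than in either class. Slc24a3, a sodium, calcium and potassium exchanger gene, was at 432, 430, 401 and 432 CPM in the 160 nuclei and at 81.1, 87.6, 31.1 and 30.2 in D2 barcodes. Over all 220 it was at 369, 373, 254 and 332, also lower in both old libraries without a call (−0.31, adjusted p = 0.512, edgeR). Its difference from D2 barcodes was 1.17 ± 0.17 with 220 nuclei (adjusted p = 9.42e-08) and 1.43 ± 0.17 with 160 (adjusted p = 6.26e-13). Glra2 and Slc24a3 did not show such a difference from Sst/Npy/Nos1 interneurons, with values of 0.08 and −0.50 that were not called.

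Kcnc2, a fast potassium channel gene, lay higher in the old libraries in D1 barcodes (15.0, 22.5, 34.3 and 52.6 CPM) without a call, and was at 95.1, 128, 81.0 and 79.0 in the 160 nuclei. The difference was −1.86 ± 0.22 with 220 nuclei (edgeR, adjusted p = 0.00226) and −1.72 ± 0.24 with 160 (adjusted p = 7.47e-09). Glra2 and Kcnc2 were the 2 genes of 14952 (0.0134%) called against D1 barcodes. With the 160 nuclei 57 of 15203 were called (0.375%), with the 136 nuclei 40 (0.269%), and 29 were called in both. Against D2 barcodes 240 of 18312 genes were called with all 220 nuclei (1.31%), 52 with the 160 (0.288%) and 36 with the 136 (0.202%), with 19 genes in all 3. The 3 sets of nuclei are nested, so shared calls are not independent. Against Sst/Npy/Nos1 interneurons, the class nearest in number, none of 11071 was called (0.0%, with 651 at an unadjusted p under 0.05), none with the 160 nuclei, and 4 with the 136 (0.0384%).

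**Figure D5:**
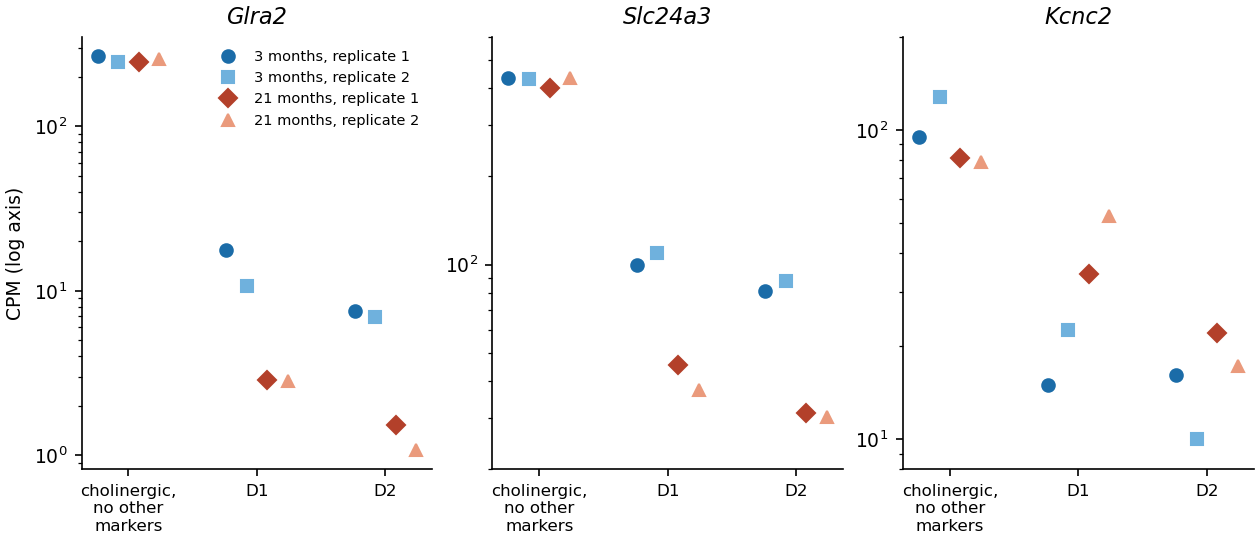
CPM of Glra2, Slc24a3 and Kcnc2, on logarithmic axes, in the 160 cholinergic nuclei and in D1 and D2 barcodes, 1 point per library. The 4 libraries lie together for Glra2 and Slc24a3 in the cholinergic nuclei. The old ones lie below the young ones for both genes in D2 barcodes and for Glra2 in D1 barcodes. For Kcnc2 the old ones lie above the young ones in D1 barcodes.

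Some cholinergic interneurons keep Lhx6, a transcription factor of the medial ganglionic eminence. Lhx6 had a UMI in 44 of the 160 nuclei, 9 and 18 at 3 months and 5 and 12 at 21 months, and in none of the 60 with another type's markers. The 44 were deeper, with a median of 25754.5 UMIs against 20873, and Gad2 had a UMI in 39 of 44 against 99 of 116. With all 220 nuclei 543 of 7334 genes (7.4%) were called between nuclei with and without Lhx6, 156 of them higher (2.13%) and 387 lower (5.28%), the latter led by medium spiny neuron genes such as Rarb (log2 difference −2.22, adjusted p = 4.05e-13, edgeR), and all 60 nuclei with another type's markers fell in the group without Lhx6. Within the 160, 4 of 5973 genes were called (0.067%), all higher with Lhx6.

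These 4 were the phosphodiesterase Pde7b, the potassium channel Kcnh7, the glutamate receptor Grm5 and the repair enzyme Msra. Pde7b was at 256, 224, 915 and 269 CPM in nuclei with Lhx6 and at 144, 154, 248 and 146 in those without (log2 difference 0.99 ± 0.16, adjusted p = 0.00428, edgeR). In 21-month replicate 1 only 5 nuclei carried Lhx6, and 2 of these 5 held 20 or more medium spiny neuron marker UMIs per 10000. Without such nuclei Pde7b was at 93.5, 49.7, 69.3 and 45.2 CPM with Lhx6 and at 32.4, 50.5, 16.3 and 64.8 without, higher with Lhx6 in 2 of 4 libraries. In the same nuclei Msra was at 107, 47.4, 86.6 and 58.8 with Lhx6 and at 37.8, 26.6, 28.6 and 52.5 without. Grm5 was at 174, 172, 225 and 199 against 146, 167, 200 and 137, so both were higher with Lhx6 in all 4 libraries, and Kcnh7 was higher in 3 of 4. The split was not tested in these nuclei. Across the 160 nuclei, the genes whose log2(CPM + 1) correlated best with that of Lhx6 among 8733 genes were Tmem214, Ddx1, Pigt, Trmt6 and Pls3, at 0.28 to 0.374, which is no finding in counts this sparse from nuclei that share libraries. Neither Gad2 (0.05, adjusted p = 1.0) nor Slc17a8 (−0.12, adjusted p = 0.998) was called between the groups.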

How the data were processed

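The deposited files hold raw counts (whole-number UMIs) per gene and barcode for 8 libraries, 4 of them used here. The authors' counting used Cell Ranger 4.0.0 per the submitters' processing notes, with mm10 as the genome, while the file headers name 6.1.2 for 7 libraries and 7.0.0 for 1 (3 months, caudate putamen replicate 2). The intron setting and the annotation are not given in the sources used here. Coordinates are from GENCODE on GRCm38.

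Counts of the nuclei of a group were summed per library. edgeR 4.0.16 (TMM scaling, filterByExpr, robust quasi-likelihood test) tested ages and, with the library as a block, differences between classes and the Lhx6 groups. p-values were adjusted by Benjamini-Hochberg over all tested genes. n is 2 libraries per age. DESeq2 1.42.0 was an alternative. No class of barcodes overlapped the cholinergic nuclei. Doublets were scored with Scrublet in scanpy 1.11.5 and kept in the main comparison. Scripts were tested on simulated counts.

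Named genes were the rule genes, called members of the gene lists (except genes not reported here) and up to 4 examples per list, up to 10 genes per direction of age, the 15 highest folds and up to 5 per direction of each difference. The members and lists were chosen with earlier results of these data known. Replicate numbers did not pair the libraries (correlation of deviations 0.029). Alternatives were UMI minimums of 3 and 6, doublets, thinning to 5000 UMIs, 31 nuclei per library, filters, DESeq2, a replicate block and leaving out libraries. Some genes are not reported here.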

Additional observations from a re-analysis of the deposited data

Results flagged for a closer look

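Differences of age effects that passed edgeR's quasi-likelihood test with all 220 nuclei stand out among the named genes. Against D1 barcodes they were Glra2 (1.90 on the log2 scale) and Kcnc2 (−1.86). Against D2 barcodes Glra2 (2.15), Slc24a3 (1.17), Ntng1 (1.47), Gm32647 (1.36) and Ror1 (1.30) had the higher signed age difference in the 220 nuclei. Gm34544 (−3.65), Cpne4 (−1.30), Fmn1 (−1.16), Gm49678 (−1.82) and Gm13963 (−1.72) had the lower one. Of the 220, 60 carried another type's markers, and their part in these differences was not tested. For Gm34544, 103 of 108 UMIs in young replicate 1 and 82 of 83 in young replicate 2 came from 1 nucleus each.

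Cpne4, Fmn1, Gm49678 and Gm13963 are cholinergic-rich genes whose low levels in D2 barcodes were higher in the old libraries. Cpne4 was at 5.11, 4.99, 12.8 and 8.42 CPM in D2 barcodes and at 3953, 4129, 3908 and 4493 in the 160 nuclei. Fmn1 was at 8.45, 8.85, 18.8 and 22.9 CPM in D2 barcodes, and Gm13963 is antisense within Fmn1, so their reads cannot be told apart without strand. Ror1 lay at 11.6, 8.05, 14.5 and 12.2 CPM in the 160 nuclei against 33.3, 40.4, 117 and 65.7 in the 220, and its difference became −0.50 with the 136 nuclei. Gm32647 rested on old replicate 1, at 131 CPM in the 220 nuclei against 23.3 in old replicate 2.

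In hippocampal libraries, which no comparison used, the same rule was met by 6 barcodes of 3 months replicate 2, by 1 of 3 months replicate 1 and by none of the 21-month libraries. All 7 had 4 UMIs of Slc5a7 and none of Chat.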

How the results depend on the processing

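Counts of age calls over the 220 nuclei depended on the processing. Against 1 gene, edgeR called 2 at a minimum of 3 rule UMIs, 13 at 6, 72 without doublets, 21 without another type's markers, 13 under 20 medium spiny neuron marker UMIs per 10000, 282 with no filter on low counts, 34 after thinning to 5000 UMIs, 42 with equal nuclei per library, and DESeq2 18. Leaving out 1 library gave 108 to 684, with 684 without 21 months replicate 2, and the lone library of an age is then assumed to vary like the others. With the replicate block, which the numbers do not support as a pairing, 165 were called, and 32 in the 160 nuclei. In these 160, it was 14 without doublets, 68 with no filter, 3 after thinning, 0 in Xist-only nuclei, 1 by DESeq2 and 13 to 56 leaving out 1 library. The cause was not tested.

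Against D1 barcodes 2 became 170 with no filter, 0 with no library block, 15 without doublets, 57 and 40 with fewer medium spiny neuron markers (160 and 136 nuclei), and 10 to 522 leaving out 1 library (38 to 49 in the 160). Against D2 barcodes 240 became 4 by DESeq2, 2 with no library block, 88 without doublets, 52 and 36 with 160 and 136 nuclei, and 38 to 549 leaving out 1 library (34 to 81 in the 160). Against Sst/Npy/Nos1 interneurons 0 became 43 with no filter, 2 without doublets, 4 with 136 nuclei, and 0 to 72 leaving out 1 library (6 to 30 in the 160). For Lhx6, 543 became 304 by DESeq2, 253 without doublets, 4 in the 160 (1 by DESeq2), and 300 to 624 leaving out 1 library (4 to 11 in the 160). The thinned Lhx6 split could not be fitted, with 1, 5, 1 and 2 nuclei left with Lhx6.

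The share difference of −0.0771 points turned to 0.0225 without 21 months replicate 1. Of 34 genes followed, 3 turned sign in log2. Slc24a4 was −0.0273 at 6 rule UMIs, and without another type's markers −0.189, −0.0837 also without doublets, −0.234 by DESeq2, −0.214 with no filter, −0.211 with the replicate block, and −0.57 to 1.89 leaving out 1 library in either set (−0.0138, −0.177 and −0.213 between). Sorcs2 was −0.547 in the 160 without 21 months replicate 2, and −0.547 to 1.16 over the libraries left out. Lingo2 was −0.0307 at 3 and −0.0634 at 6 rule UMIs. With 2 libraries of pooled animals per age and 20 to 52 of the 160 nuclei in each, genes under about 10 CPM rest on few UMIs.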
